A study of Homo sapiens with 9 samples.

Results

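The 27 genes described here encode enzymes of cholesterol synthesis and proteins that regulate or transport sterol around SREBP2. They were chosen by gene symbol from a list of known function and make up 27 of the 17123 genes in the deposited table. The choice was made with earlier results of these data known. All 27 reached the level needed for testing, among 11808 genes that did. Expression was measured by RNA sequencing in LX-2, a human stellate cell line of the liver in long use. The study asked what loss of LOX or LOXL1, secreted amine oxidases that begin the cross-linking of collagen and elastin, does to the transcripts of these cells. All 9 libraries came from cells given TGFβ1 at 10 ng/ml, a cytokine that drives stellate cells toward a myofibroblast state. They form 3 groups of 3 libraries, by the siRNA transfected: negative control, LOX or LOXL1, with the siRNAs to LOX and LOXL1 at 25 nM for 48 h. The sources used here do not give the dose or the time of the control siRNA. By the labels no group lacks TGFβ1 or siRNA, so differences below are read as between cytokine-treated, transfected cells of 1 line. The treatment label of control replicate 3 does not carry the word siRNA, and its title places it among the controls. Nothing says whether the replicates are separate cultures. The p-values set differences only against the spread among these libraries, and that spread may be technical.

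Cholesterol is built from acetyl-CoA through mevalonate, the isoprenoid diphosphates, squalene and lanosterol. SREBP2, the product of SREBF2, is a transcription factor made as a membrane-bound precursor in the endoplasmic reticulum. When membrane sterol is low, the escort protein SCAP carries it to the Golgi, where proteases release its active part, which then switches on most genes of the pathway. When sterol is high, the INSIG proteins hold SCAP back, and INSIG1 is itself a target of SREBP2. In mice, loading of hepatic stellate cells with free cholesterol has been linked to a stronger response to TGFβ.

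Levels are FPKM, the fragments of a gene scaled to its transcript length and to the size of the library, so that levels of different genes can be set side by side per length. The values of a library summed to 384881 to 396088, and 11663 to 11728 genes reached 1 FPKM. No counts were used here, so the depth behind each value is unknown. LOX stood at 47.7, 42.8 and 48.1 FPKM in the control libraries and at 28.9, 30.8 and 25.6 with its siRNA, and it fell by 0.68 on the log2 scale (SE 0.062, limma, adjusted p = 0.000673). LOXL1 stood at 12.2, 13.5 and 11.3 FPKM in the control libraries and at 5.66, 7.26 and 7.49 with its siRNA, and it fell by 0.78 (SE 0.091, limma, adjusted p = 0.00432). Mean FPKM fell by 38.5% for LOX and fell by 44.8% for LOXL1. With LOXL1 siRNA, LOX stood at 51.9, 49.5 and 51.9 FPKM, above all controls, with a log2 fold change of 0.14 (SE 0.062, limma adjusted p = 0.456). With LOX siRNA, LOXL1 stood at 12.5, 10.6 and 11.9 FPKM and overlapped the controls (-0.069, SE 0.091, limma adjusted p = 0.91). Of 12 stellate cell and myofibroblast markers, 10 reached 1 FPKM in at least 3 libraries, with a summed level of 2753 to 2995 in the control libraries, 2718 to 2964 with LOX siRNA and 2810 to 3006 with LOXL1 siRNA. The stellate markers DES and LRAT were near 0, with means of 0.0133 and 0.12 FPKM. None of the 6 hepatocyte markers in the table and none of the 4 endothelial markers reached 1 FPKM in 3 libraries. The summed hepatocyte markers stayed between 0.62 and 1.02 FPKM in all 9 libraries. Of 4 cholangiocyte markers, KRT7 and SOX9 reached 1 FPKM in at least 3 libraries, and of 5 macrophage and leukocyte markers CD68, CD14 and PTPRC did, with group ranges that overlapped. Control replicate 2 stood apart from the other 8 libraries in its GC trend. Across genes, its deviation from the mean of the 9 libraries had a Spearman rho of 0.696 with GC content, against -0.309 to 0.170 in the others. That rho was 0.170, -0.011 and 0.029 with LOX siRNA and -0.309, -0.222 and -0.255 with LOXL1 siRNA. With transcript length, rho was -0.285, -0.279 and -0.249 with LOX siRNA and 0.308, 0.197 and -0.049 with LOXL1 siRNA. In the control libraries the rho with length was 0.376, -0.166 and 0.138. Length trends thus differed between the knockdown groups. In bulk RNA, fewer cells with a transcript and less transcript per cell cannot be told apart.

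The pathway was well expressed in these cells. Mean levels over the 9 libraries ran from 1.86 FPKM for MYLIP to 135 FPKM for CYP51A1, with a median of 34.8 FPKM over the 27 genes against 12.7 FPKM over all genes tested. Of the 27, 22 lay above the median of the tested genes and 7 were among the top 10 percent. After CYP51A1, the lanosterol demethylase, the most abundant transcripts were FDPS at 125 FPKM, DHCR7 at 114 FPKM and ACAT2 at 104 FPKM. The scarcest after MYLIP were INSIG2 at 7.27 FPKM and PMVK at 8.76 FPKM. INSIG1, the form of the retention protein that SREBP2 induces, was 6.73 times as abundant per length as INSIG2. The same double bond of the sterol ring can be reduced by TM7SF2 or by LBR, and the transcript of LBR was 1.88 times as abundant per length. Levels varied little between libraries. The ratio of the highest to the lowest of the 9 values had a median of 1.16 over the 27 genes, against 1.19 over all genes tested, and ran from 1.07 for FDFT1 to 1.52 for MYLIP.

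**Figure D1:**
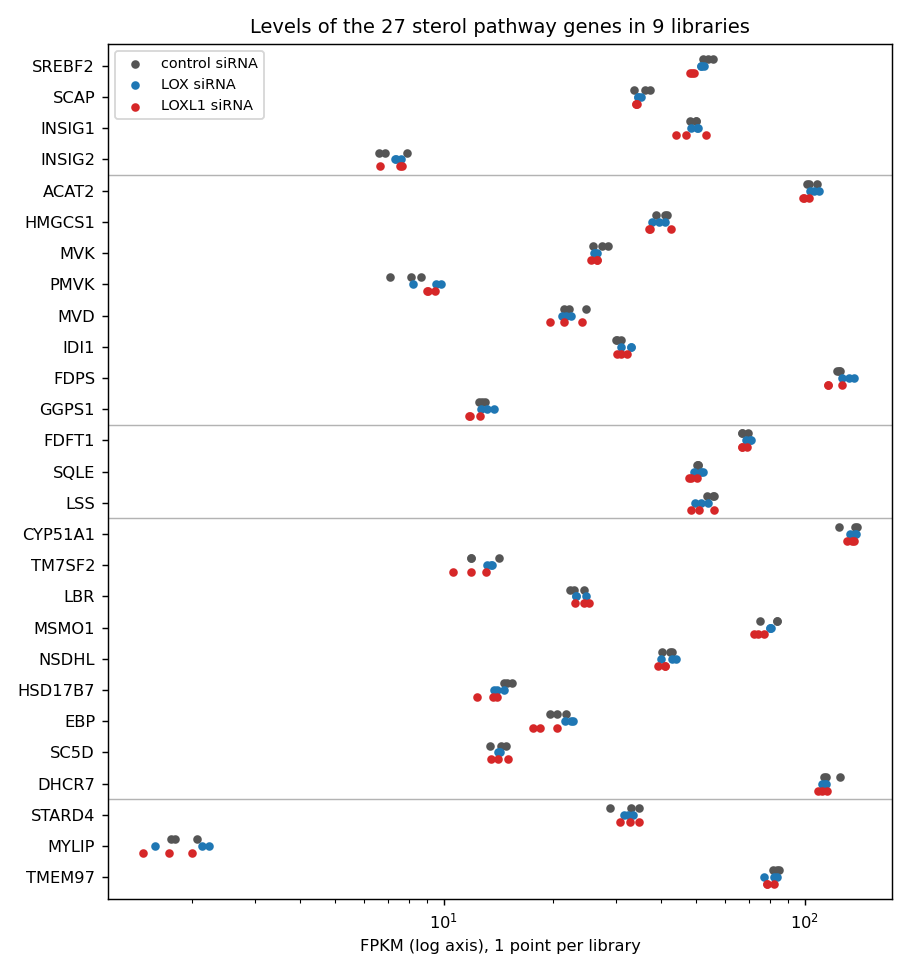
FPKM of each of the 27 genes (log axis) in the 9 libraries, 1 point per library, coloured by siRNA group and ordered by role from regulators to transport. The genes span 1.86 to 134.9 FPKM in their means, while the 9 points of a gene lie close together and the 3 groups mostly overlap.

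SREBP2 acts through sterol regulatory elements in promoters, usually beside boxes for NF-Y and GC boxes for SP1, so the 250 bases before the RefSeq gene start (GRCh38.p14) were searched for these letters. Promoters were held for 24 of the 27 genes; ACAT2, FDFT1 and SQLE are named only. The letters searched, on both strands, were TCACNCCAC for the sterol regulatory element, CCAAT for NF-Y and GGGCGG for the GC box. The sterol element in this strict form was present in 1 of the 24 promoters, that of SREBF2 itself (4.17%), against 0.849% of 9780 promoters of tested genes and 0.875% of all 27305 promoters. NF-Y letters were present in 17 of 24 (70.8%), against 35.5% of tested genes and 33% of all. At least 2 NF-Y boxes were present in 11 of the 24, against 13.3% of tested genes. GC boxes were present in 21 of 24 (87.5%), against 68.7% of tested genes and 42.3% of all. The largest number of NF-Y matches was 5, in MVK and in NSDHL. In NSDHL the matches that begin 113 and 110 bases before the start overlap, on opposite strands. A match is a description of letters and not a measured binding site, and no match says only that these letters are not in this window.

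The 4 promoters below belong to the genes with the smallest p in each comparison (SREBF2, EBP and PMVK) and to the gene that passed the threshold under another treatment of GC content (MSMO1). They run 5′ to 3′ on the strand of the gene, end at the base before the RefSeq start, and come from RefSeq: SREBF2 at chr22:41832855-41833104 (plus strand), EBP at chrX:48521558-48521807 (plus strand), MSMO1 at chr4:165327419-165327668 (plus strand) and PMVK at chr1:154936720-154936969 (minus strand). Capitals mark the sterol regulatory element, present in SREBF2 alone of the 4, and the NF-Y boxes, read as CCAAT or, on the other strand, ATTGG. None of the capitalised matches overlap each other.
SREBF2: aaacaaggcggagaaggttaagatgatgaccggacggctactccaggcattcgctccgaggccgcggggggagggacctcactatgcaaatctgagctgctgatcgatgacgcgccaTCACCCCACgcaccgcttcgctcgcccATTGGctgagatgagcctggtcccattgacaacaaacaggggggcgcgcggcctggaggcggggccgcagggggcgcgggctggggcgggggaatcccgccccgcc
EBP: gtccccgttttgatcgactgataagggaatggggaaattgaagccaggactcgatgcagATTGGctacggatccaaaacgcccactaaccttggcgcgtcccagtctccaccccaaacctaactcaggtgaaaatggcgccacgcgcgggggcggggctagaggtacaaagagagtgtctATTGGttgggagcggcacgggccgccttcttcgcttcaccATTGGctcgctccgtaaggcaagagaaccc
MSMO1: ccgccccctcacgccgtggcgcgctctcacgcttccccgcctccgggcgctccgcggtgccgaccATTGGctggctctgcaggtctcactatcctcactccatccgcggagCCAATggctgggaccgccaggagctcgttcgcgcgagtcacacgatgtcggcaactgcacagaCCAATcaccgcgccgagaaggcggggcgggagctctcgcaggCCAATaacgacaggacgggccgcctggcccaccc
PMVK: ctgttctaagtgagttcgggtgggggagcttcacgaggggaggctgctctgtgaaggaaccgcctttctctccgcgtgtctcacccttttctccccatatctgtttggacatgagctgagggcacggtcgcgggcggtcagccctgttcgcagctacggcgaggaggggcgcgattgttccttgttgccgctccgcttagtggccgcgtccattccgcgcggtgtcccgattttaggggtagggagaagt

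In SREBF2 the sterol element began 133 bases before the start and an NF-Y box 106 bases before it. EBP had 3 NF-Y boxes, at 191, 70 and 30 bases, and MSMO1 had 4, at 185, 139, 76 and 34 bases. PMVK had none of the capitalised matches. The starts that the deposited table gives for SREBF2, EBP and MSMO1 lie within the last bases of their windows. The deposited table ends the PMVK gene at position 154942650, upstream of the RefSeq start next to the window shown, so transcripts from another start may be counted in its value.

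**Figure D2:**
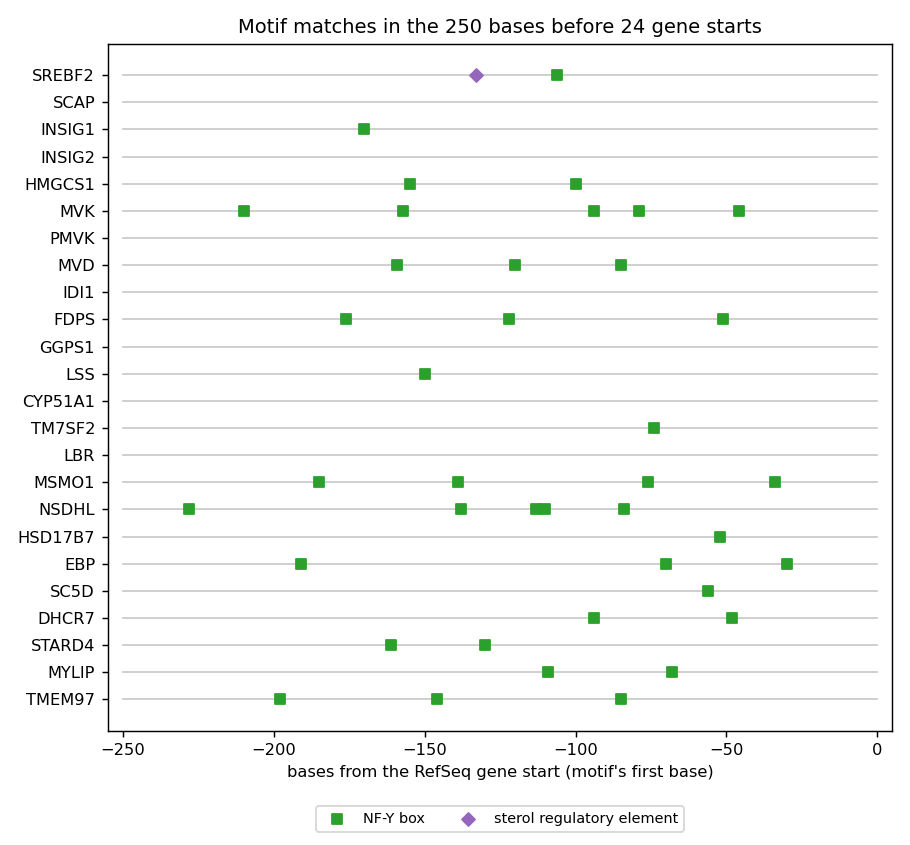
Positions of NF-Y letters (squares) and of the sterol regulatory element (diamond) in the 250 bases before the RefSeq start of 24 genes, with the start at 0 on the right. The only diamond is in SREBF2; squares are present in 17 genes, and 7 genes have none.

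No gene of the pathway passed the adjusted threshold of 0.05 in any of the 3 comparisons (limma, adjusted over 11808 genes), and the largest differences were small. With LOX siRNA against control siRNA, 0.00847% of tested genes passed, which is LOX alone. PMVK, the kinase that makes mevalonate diphosphate, had the highest ratio, with a log2 fold change of 0.19 (SE 0.072, limma adjusted p = 0.687). Of the 27 genes, 2 were higher at an unadjusted p under 0.05 (PMVK and IDI1), against 4.37% of all tested genes, and 0 were lower, against 2.56%. Groups did not overlap in 2 genes that were higher (IDI1 and FDPS), against 6.78% of tested genes, and in 1 that was lower (HSD17B7), against 5.97%. The median log2 fold change of the 27 was 0.015, against 0.0035 over all tested genes, and 11 of the 27 were below 0. The counts of pathway genes were near these backgrounds. With 1 library left out, 0 to 4 of the 27 were higher at an unadjusted p under 0.05: 0 without control replicate 1 or LOX siRNA replicate 1, and 4 without LOXL1 siRNA replicate 3. Without that last library 1 of the 27 was lower. With the length and GC trends of each library removed, 2 were lower and 1 was higher. The 95% intervals of the 27 single genes lay between -0.20 and 0.34.

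With LOXL1 siRNA against control siRNA, most of the 27 genes lay slightly lower, led by SREBF2 and the sterol ketoreductase HSD17B7, and PMVK again lay higher. Of the 27, 0 passed the adjusted threshold, where 0.0762% of tested genes did. At an unadjusted p under 0.05, 4 were lower (SREBF2, HSD17B7, MSMO1 and EBP), against 6.41% of tested genes, and 1 was higher (PMVK), against 3.82%. Groups did not overlap in 3 genes that were lower (SREBF2, SQLE and HSD17B7), against 8.57%, and in 1 that was higher (PMVK), against 5.74%. The count of 4 moved when a library was left out: it was 1 without LOXL1 siRNA replicate 1, 2 without LOXL1 siRNA replicate 2 or control replicate 1, and 9 without LOXL1 siRNA replicate 3, and it was 2 with no mean-variance trend or with the compared groups fitted alone. The log2 fold change was below 0 in 21 of the 27, where 53.3% of all tested genes were below 0. The median over the 27 was -0.055, against -0.0058 over all tested genes. The smallest adjusted p was 0.178, for SREBF2. The 95% intervals of single genes lay between -0.29 and 0.34. Both knockdowns were compared with the same 3 control libraries, so their fold changes are not independent of each other.

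Between the knockdowns, 24 of the 27 genes were higher with LOX siRNA than with LOXL1 siRNA, led by EBP, the sterol isomerase, and FDPS, the farnesyl diphosphate synthase. Of the 27, 0 passed the adjusted threshold, where 0.212% of tested genes did. At an unadjusted p under 0.05, 6 were higher (EBP, FDPS, GGPS1, SREBF2, MSMO1 and TM7SF2), against 8.25% of tested genes, and 0 were lower, against 4.56%. The count of 6 was 3 with median-ratio scaling, 2 without LOX siRNA replicate 1, 4 without LOX siRNA replicate 2, and 3 without LOXL1 siRNA replicate 1 or 2. Groups did not overlap in 8 genes, all higher with LOX siRNA, against 12.1% of tested genes, and in 0 that were lower, against 9.41%. These 8 were the same 6 genes with SCAP and ACAT2. The median over the 27 was 0.049, against 0.011 over all tested genes, of which 44.3% were below 0. It was 0.025 without LOXL1 siRNA replicate 1 and 0.071 without LOXL1 siRNA replicate 3. The smallest adjusted p was 0.109, for EBP, and the 95% intervals of single genes lay between -0.16 and 0.35. The number of the 27 above 0 depended on single libraries: 10 were below 0 without LOXL1 siRNA replicate 1, and 1 was below 0 without LOXL1 siRNA replicate 3. With the length and GC trends of each library removed, 6 of the 27 were below 0.

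**Figure D3:**
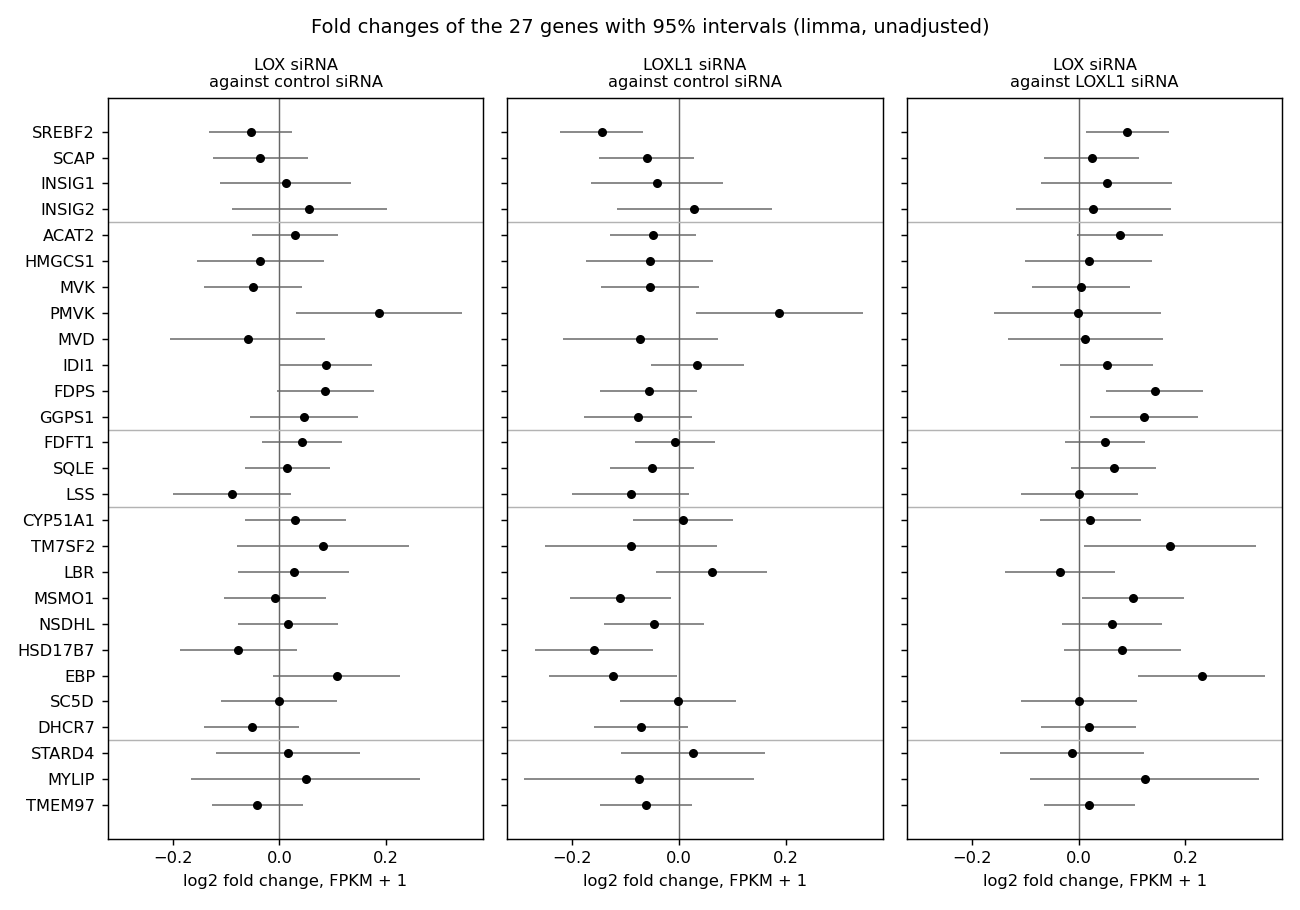
Log2 fold changes of FPKM + 1 for the 27 genes in the 3 comparisons (points) with unadjusted 95% intervals from limma (bars), ordered by role. Most intervals cross 0; with LOXL1 siRNA against control siRNA 21 of 27 points lie left of 0, and with LOX siRNA against LOXL1 siRNA 24 of 27 lie right of it.

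Among the regulators, SREBF2 (gene ID 6721, chromosome 22, 41833079 to 41907308, plus strand) had the smallest p of the 27 with LOXL1 siRNA against control. It stood at 53.9, 55.8 and 52.1 FPKM in the control libraries, 52.4, 51.6 and 51.7 with LOX siRNA and 48.1, 48.5 and 49.4 with LOXL1 siRNA. All 3 control libraries lay above all 3 LOXL1 siRNA libraries, the LOX siRNA libraries lay between, and only LOX siRNA replicate 1 reached into the control range. The group means were 53.9 ± 1.87, 51.9 ± 0.451 and 48.7 ± 0.635 FPKM (SD, n = 3), a difference of -9.77% with LOXL1 siRNA. The log2 fold change with LOXL1 siRNA was -0.145 (SE 0.036, 95% interval -0.22 to -0.067, unadjusted p = 0.00142, limma adjusted p = 0.178). Control replicate 2, the library with the strongest GC trend, held the highest value. Without it the log2 fold change was -0.12 (adjusted p = 0.294), and with the length and GC trends of each library removed it was -0.099 (adjusted p = 0.218). Between the knockdowns SREBF2 was higher with LOX siRNA in all 3 libraries, with a log2 fold change of 0.091 (SE 0.036, limma adjusted p = 0.315). With LOX siRNA against control it was -0.054 (SE 0.036, limma adjusted p = 0.763), and -0.0095 with those trends removed.

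SCAP, which escorts SREBP2 out of the endoplasmic reticulum, stood at 36.1, 37.2 and 33.6 FPKM in the control libraries, 34.6, 34.4 and 35.1 with LOX siRNA and 34.1, 34.0 and 34.2 with LOXL1 siRNA. The control libraries spanned more than all the others, and the groups overlapped in both comparisons with control; the LOX siRNA libraries lay just above those with LOXL1 siRNA. INSIG1, the retention protein that SREBP2 itself induces, stood at 49.9, 48.1 and 49.8 FPKM in the control libraries, 50.1, 50.5 and 48.4 with LOX siRNA and 43.8, 46.8 and 53.3 with LOXL1 siRNA. With LOXL1 siRNA it held both the lowest and the highest of the 9 values, and the log2 fold change against control was -0.041 (SE 0.057, limma adjusted p = 0.829). INSIG2, a second retention protein that does not depend on SREBP2 in the same way, stood at 6.85, 6.62 and 7.89 FPKM in the control libraries, 7.31, 7.36 and 7.60 with LOX siRNA and 6.63, 7.57 and 7.63 with LOXL1 siRNA. Its groups overlapped in every comparison. For SCAP, INSIG1 and INSIG2 the smallest limma adjusted p over the comparisons was 0.640.

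**Figure D4:**
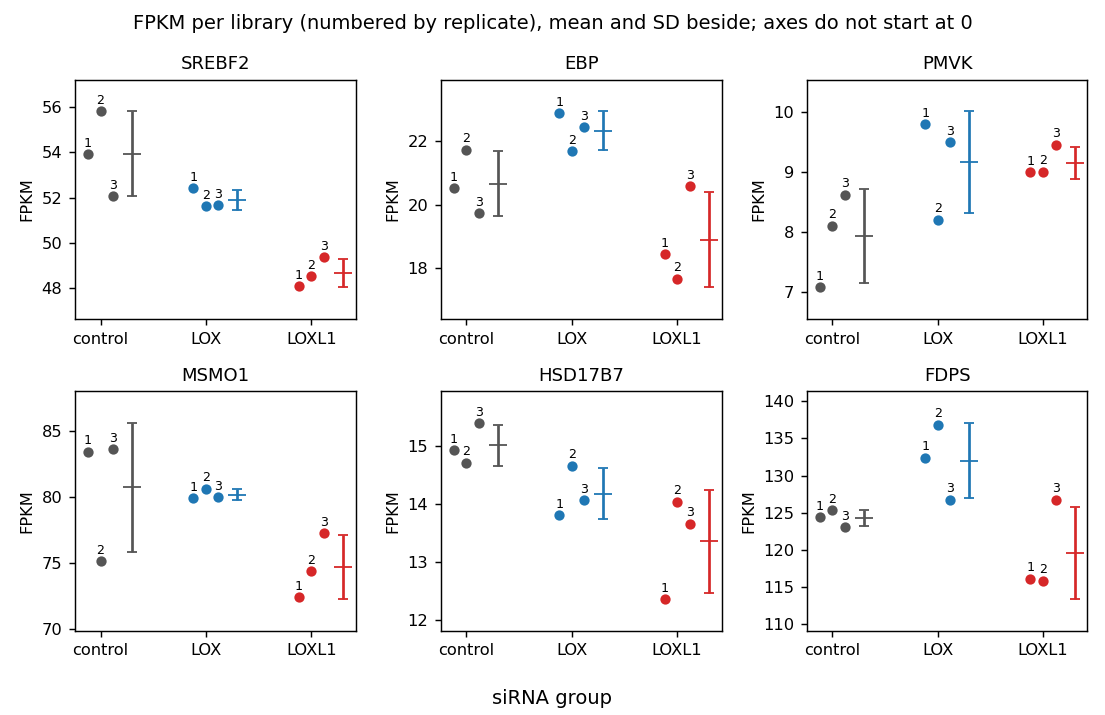
FPKM in each library (points, numbered by replicate) for SREBF2, EBP, PMVK, MSMO1, HSD17B7 and FDPS, with the group mean and SD beside the points (n = 3); the axes do not start at 0. SREBF2 has all LOXL1 siRNA points under all control points, and PMVK has all LOXL1 siRNA points above all control points.

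From acetyl-CoA to the isoprenoids, the largest difference was in PMVK (gene ID 10654, chromosome 1, 154924732 to 154942650, minus strand), whose product is mevalonate diphosphate. It stood at 7.08, 8.11 and 8.63 FPKM in the control libraries, 9.80, 8.21 and 9.50 with LOX siRNA and 9, 9.01 and 9.46 with LOXL1 siRNA. Control replicate 1 was the lowest of the 9 and all LOXL1 siRNA libraries lay above all controls, while LOX siRNA replicate 2 was within the control range. Means were 7.94 ± 0.789, 9.17 ± 0.845 and 9.16 ± 0.263 FPKM (SD, n = 3), 15.5% higher with LOX siRNA and 15.3% higher with LOXL1 siRNA. The log2 fold change against control was 0.19 (SE 0.072, limma adjusted p = 0.687) with LOX siRNA and 0.19 (SE 0.072, limma adjusted p = 0.404) with LOXL1 siRNA. Both use the same controls, and without control replicate 1 they were 0.115 (adjusted p = 0.929) and 0.12 (adjusted p = 0.603). Between the knockdowns the log2 fold change was -0.0012 (95% interval -0.16 to 0.16).

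IDI1, the isomerase that supplies dimethylallyl diphosphate, stood at 29.9, 30.2 and 30.9 FPKM in the control libraries, 32.9, 32.9 and 31.0 with LOX siRNA and 30.9, 30.2 and 32.1 with LOXL1 siRNA. The LOX siRNA libraries lay above the controls, the nearest by a small margin, and the log2 fold change was 0.087 (SE 0.040, limma adjusted p = 0.706). FDPS (gene ID 2224, chromosome 1, 155308748 to 155320666, plus strand), which joins isoprenoid units into farnesyl diphosphate, stood at 124, 125 and 123.1 FPKM in the control libraries, 132, 137 and 127 with LOX siRNA and 116, 116 and 127 with LOXL1 siRNA. LOX siRNA libraries were highest and LOXL1 siRNA replicates 1 and 2 lowest, while LOXL1 siRNA replicate 3 at 126.75 FPKM lay just under the lowest LOX siRNA library at 126.76 FPKM. Between the knockdowns the FDPS mean was 10.4% higher with LOX siRNA, with a log2 fold change of 0.14 (SE 0.042, limma adjusted p = 0.193). With the length and GC trends of each library removed, that fold change was 0.096 (limma adjusted p = 0.301). The GENCODE annotation lists 8 pseudogenes of FDPS, and reads shared with them would make its value uncertain. It lists pseudogenes of CYP51A1 and TMEM97 as well.

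GGPS1, which makes the geranylgeranyl diphosphate used to anchor small GTPases in membranes, stood at 13.0, 12.7 and 12.5 FPKM in the control libraries, 13.8, 13.1 and 12.7 with LOX siRNA and 11.7, 12.6 and 11.8 with LOXL1 siRNA. The LOX siRNA libraries lay above those with LOXL1 siRNA, with a log2 fold change of 0.12 (SE 0.047, limma adjusted p = 0.301). GGPS1 shares 37.3% of its exonic bases with TBCE on the same strand, so its value is uncertain. The other 4 genes of this stretch were ACAT2, a thiolase, HMGCS1, the synthase of hydroxymethylglutaryl-CoA, MVK, the mevalonate kinase, and MVD, the decarboxylase that ends the mevalonate steps. Their values over the 9 libraries ran from 19.6 FPKM in MVD to 109 FPKM in ACAT2. All 4 had a negative fold change with LOXL1 siRNA against control, from -0.072 in MVD to -0.049 in ACAT2. The smallest limma adjusted p there was 0.675, for ACAT2. ACAT2 overlaps SOD2 and TCP1 on the opposite strand, and the sources used here do not say whether counting used strand. Opposite-strand genes also share 18.6% of the exonic bases of FDPS, 15% of HMGCS1, 14.8% of IDI1 and 11.9% of TMEM97.

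In squalene and lanosterol formation the differences were small. FDFT1, the squalene synthase, stood at 67.0, 67.2 and 69.8 FPKM in the control libraries, 68.7, 71.1 and 70.2 with LOX siRNA and 66.8, 66.7 and 69.3 with LOXL1 siRNA. Its highest value exceeded its lowest by a ratio of 1.07, and the groups overlapped. SQLE, the squalene epoxidase that is a rate-limiting step of the later pathway, stood at 50.4, 50.5 and 50.5 FPKM in the control libraries, 51.4, 52.3 and 49.4 with LOX siRNA and 47.6, 48.2 and 50.3 with LOXL1 siRNA. The 3 control libraries were almost equal, and all LOXL1 siRNA libraries lay below them, the nearest by a small margin. The log2 fold change of SQLE with LOXL1 siRNA was -0.051 (SE 0.037, limma adjusted p = 0.658). LSS, which closes the ring system to give lanosterol, was the lowest of the 3 in relation to control in both knockdowns, with log2 fold changes of -0.089 (SE 0.051, limma adjusted p = 0.725) with LOX siRNA and -0.091 (SE 0.051, limma adjusted p = 0.563) with LOXL1 siRNA. Its 9 values ran from 48.4 to 56.1 FPKM, with LOXL1 siRNA replicates 1 and 3 at the low and the high end of their group.

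From lanosterol to cholesterol, EBP, HSD17B7, MSMO1 and TM7SF2 differed most. EBP (gene ID 10682, chromosome X, 48521776 to 48528716, plus strand), the isomerase that shifts a double bond in the sterol ring, stood at 20.5, 21.7 and 19.7 FPKM in the control libraries, 22.9, 21.7 and 22.4 with LOX siRNA and 18.4, 17.7 and 20.6 with LOXL1 siRNA. All LOX siRNA libraries lay above all LOXL1 siRNA libraries, the controls lay between and overlapped both, and LOXL1 siRNA replicate 3 was the highest of its group. Means were 20.7 ± 1.00, 22.3 ± 0.603 and 18.9 ± 1.497 FPKM (SD, n = 3). The LOX siRNA mean was 18.0% higher than that with LOXL1 siRNA, with a log2 fold change of 0.23 (SE 0.055, 95% interval 0.11 to 0.35, unadjusted p = 0.00108, limma adjusted p = 0.109). Without LOXL1 siRNA replicate 3 the log2 fold change was 0.29 and passed the threshold (adjusted p = 0.0391). Over all libraries left out in turn it was 0.19 to 0.29, with adjusted p of 0.0391 to 0.383. With the length and GC trends of each library removed it was 0.18 (limma adjusted p = 0.144). Against control it was 0.11 (SE 0.055, limma adjusted p = 0.706) with LOX siRNA and -0.12 (SE 0.055, limma adjusted p = 0.472) with LOXL1 siRNA.

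HSD17B7 (gene ID 51478, chromosome 1, 162790702 to 162812818, plus strand), a ketoreductase that completes the removal of methyl groups from the ring, stood at 14.9, 14.7 and 15.4 FPKM in the control libraries, 13.8, 14.7 and 14.1 with LOX siRNA and 12.4, 14.04 and 13.7 with LOXL1 siRNA. All 6 knockdown libraries lay below all 3 controls, the nearest being LOX siRNA replicate 2 at 14.66 FPKM under control replicate 2 at 14.71 FPKM, and LOXL1 siRNA replicate 1 was the lowest. The log2 fold change was -0.16 (SE 0.051, limma adjusted p = 0.297) with LOXL1 siRNA, and -0.077 (SE 0.051, limma adjusted p = 0.762) with LOX siRNA. HSD17B7 has 2 listed pseudogenes, HSD17B7P1 and HSD17B7P2, that could share its reads. MSMO1 (gene ID 6307, chromosome 4, 165327666 to 165343164, plus strand), an oxidase that begins the removal of ring methyl groups after the CYP51A1 step, stood at 83.5, 75.1 and 83.7 FPKM in the control libraries, 79.9, 80.6 and 80.0 with LOX siRNA and 72.4, 74.4 and 77.3 with LOXL1 siRNA. Control replicate 2 lay within the LOXL1 siRNA range and the other controls above it, while the LOX siRNA libraries were close together. The log2 fold change with LOXL1 siRNA was -0.11 (SE 0.044, limma adjusted p = 0.423). With the length and GC trends of each library removed it was -0.16 and passed the threshold (adjusted p = 0.0377), and without control replicate 2 it was -0.16 (adjusted p = 0.167).

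TM7SF2, a sterol reductase of the endoplasmic reticulum, stood at 11.9, 14.2 and 11.9 FPKM in the control libraries, 13.2, 13.5 and 13.6 with LOX siRNA and 10.6, 11.9 and 13.1 with LOXL1 siRNA. Control replicate 2 was the highest of the 9, and the LOX siRNA libraries lay just above those with LOXL1 siRNA, with a log2 fold change of 0.17 (SE 0.075, limma adjusted p = 0.356), or 0.11 with the length and GC trends removed. CYP51A1, the demethylase of lanosterol and the most abundant of the 27 transcripts, stood at 138, 124 and 139 FPKM in the control libraries, 134, 138 and 138 with LOX siRNA and 131, 135 and 137 with LOXL1 siRNA. Control replicate 2 was the lowest of the 9 and the groups overlapped, with log2 fold changes of 0.030 (SE 0.044, limma adjusted p = 0.922) and 0.0075 (SE 0.044, limma adjusted p = 0.974) for LOX and LOXL1 siRNA against control. Of its exonic bases, 79.4% are shared with AC000120.2 on the same strand, so its value is uncertain. The other 4 enzymes of this stretch were LBR, a reductase that also binds lamin in the nuclear envelope, NSDHL, a decarboxylating dehydrogenase, SC5D, a desaturase, and DHCR7, which reduces dehydrocholesterol to cholesterol. Against control, their log2 fold changes with LOXL1 siRNA ran from -0.071 in DHCR7 to 0.061 in LBR, and none had an adjusted p under 0.569. SC5D had the fold changes nearest to 0 against control, -0.00048 with LOX siRNA and -0.0014 with LOXL1 siRNA, with 95% intervals of -0.11 to 0.11 and -0.11 to 0.11.

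Of the transport and uptake genes, MYLIP, the ubiquitin ligase that sends lipoprotein receptors for degradation and is induced by the oxysterol receptor LXR, was the scarcest. It stood at 1.75, 1.80 and 2.07 FPKM in the control libraries, 2.14, 1.58 and 2.23 with LOX siRNA and 1.73, 2.00 and 1.47 with LOXL1 siRNA, and the groups overlapped in every comparison. At such low levels the pseudocount of 1 shrinks differences, and the widest intervals of the 27 were its own, such as -0.29 to 0.14 with LOXL1 siRNA against control. TMEM97, a sterol-binding membrane protein that restrains the lysosomal cholesterol transporter, stood at 84.9, 81.4 and 83.5 FPKM in the control libraries, 83.6, 82.2 and 76.99 with LOX siRNA and 78.6, 78.4 and 82.2 with LOXL1 siRNA. Control replicate 1 was highest and LOX siRNA replicate 3 lowest, and the log2 fold changes against control were -0.041 (SE 0.040, limma adjusted p = 0.855) with LOX siRNA and -0.062 (SE 0.040, limma adjusted p = 0.614) with LOXL1 siRNA. STARD4, a soluble carrier of cholesterol between membranes, ran from 28.8 FPKM in control replicate 2 to 34.8 FPKM in LOXL1 siRNA replicate 3, with log2 fold changes against control of 0.015 and 0.027.

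The libraries with LOXL1 siRNA did not behave alike across the 27 genes. Summed over the 27, FPKM was 1193, 1208 and 1268 in LOXL1 siRNA replicates 1, 2 and 3, 1272, 1256 and 1271 in the control libraries, and 1280, 1285 and 1251 with LOX siRNA. Replicates 1 and 2 of the LOXL1 siRNA group were lower than all other libraries, and replicate 3 was within the control range. Of the 27 genes, 24, 22 and 13 lay below the control mean in LOXL1 siRNA replicates 1, 2 and 3, with median deviations of -0.087, -0.065 and 0.024 on the log2 scale. Over all tested genes these medians were -0.0089, -0.0008 and -0.0059. Replicate 3 held the highest value of its group in 20 of the 27 genes, against 36.1% of all tested genes, and replicate 1 held the lowest in 17, against 37.3%. The values against control moved with these libraries. The median of the 27 against control was -0.064 without LOXL1 siRNA replicate 3 and -0.035 without replicate 1, with 24 and 18 of the 27 below 0.

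By role, LOXL1 siRNA replicates 1 and 2 had the lowest summed levels of the 9 libraries for the regulators (132.7 and 137.0 FPKM, against 143 to 148 elsewhere), the steps from acetyl-CoA to isoprenoids (352.6 and 351.8, against 368.6 to 387), the formation of squalene and lanosterol (162.8 and 165.7, against 169 to 176) and the steps from lanosterol to cholesterol (434 and 441, against 453 to 464). For transport genes the LOX siRNA and control libraries reached down to 111.5 and 112 FPKM, so the groups overlapped. In SREBF2, SQLE and HSD17B7 all 3 LOXL1 siRNA libraries, replicate 3 included, were below every control. These are 3 of the 27 genes, where 8.57% of tested genes had the same pattern, so the count is near the background. For SQLE the margin was 50.31 against 50.37 FPKM.

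**Figure D5:**
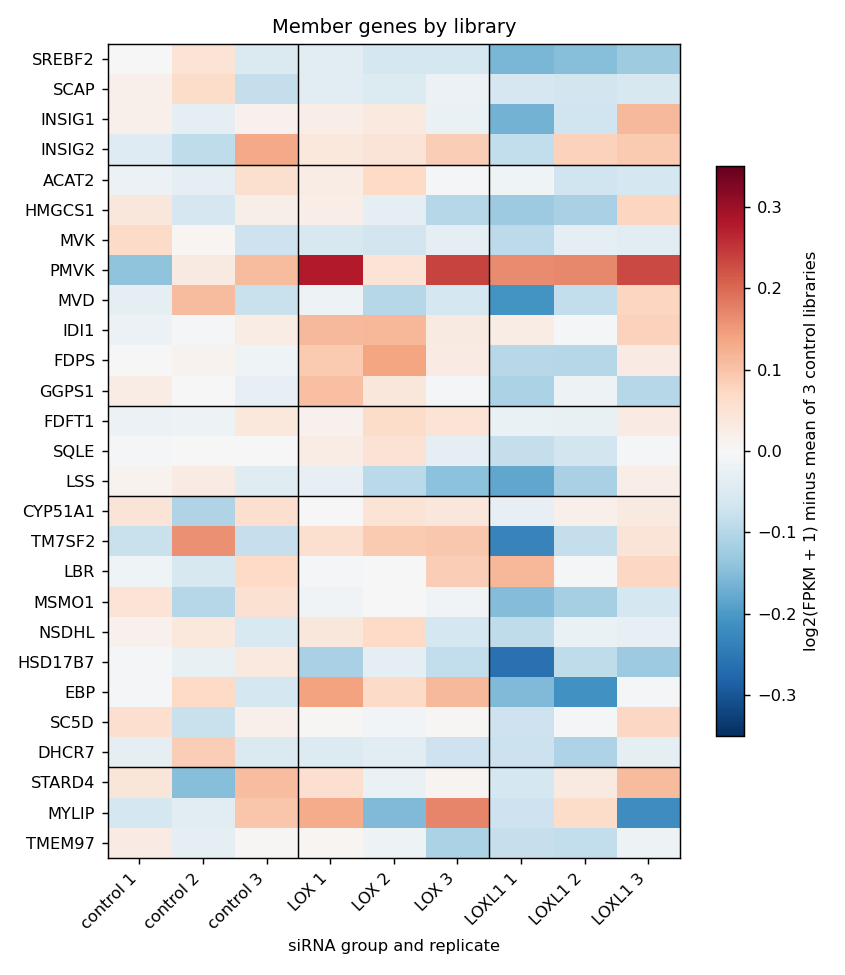
Difference of log2(FPKM + 1) from the mean of the 3 control libraries (colour, red higher and blue lower) for the 27 genes (rows, ordered by role) in the 9 libraries (columns). LOXL1 siRNA replicates 1 and 2 are mostly blue, with 24 and 22 genes below the control mean, while replicate 3 has 13; PMVK is red in all 6 knockdown libraries.

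Neighbouring pathways were read from lists of known function, also chosen with earlier results known. Of their genes, 0 passed the adjusted threshold in any comparison (limma). Of 23 partners of SREBP processing and sterol sensing, such as the proteases, the COPII coat and the ubiquitin ligases that act on INSIG, 8 lay below 0 with LOXL1 siRNA against control (median 0.028). At an unadjusted p under 0.05, 0 of the 23 were lower, against 6.41% of tested genes, and 0 were higher, against 3.82%; in a list of this size that is near the background. SEC24A, a COPII coat subunit that packs cargo for the Golgi, stood at 17.0, 16.8 and 17.0 FPKM in the control libraries, 16.1, 16.0 and 14.4 with LOX siRNA and 18.5, 17.0 and 17.8 with LOXL1 siRNA. All 3 LOX siRNA libraries were lower than the other 6, with a log2 fold change of -0.18 (SE 0.050, limma adjusted p = 0.159) between the knockdowns and -0.12 (SE 0.050, limma adjusted p = 0.706) against control.

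Of 18 tested genes of SREBP1 and fatty acid synthesis, 15 lay below 0 with LOX siRNA against control (median -0.056) and 13 with LOXL1 siRNA against control (median -0.050), where 47.8% and 53.3% of all tested genes were below 0. FASN, the fatty acid synthase, stood at 30.9, 32.9 and 27.6 FPKM in the control libraries and 28.5, 26.9 and 26.5 with LOX siRNA, and the groups overlapped, with a log2 fold change of -0.15 (SE 0.056, limma adjusted p = 0.678). Control replicate 2 held the highest value of FASN. ACSS2, which makes acetyl-CoA from acetate, stood at 26.7, 26.01 and 25.0 FPKM in the control libraries, 25.7, 24.8 and 26.3 with LOX siRNA and 21.8, 22.6 and 24.5 with LOXL1 siRNA. It was lower with LOXL1 siRNA than in all other libraries, with log2 fold changes of -0.17 (SE 0.047, limma adjusted p = 0.254) against control and 0.15 (SE 0.047, limma adjusted p = 0.221) between the knockdowns. ME1, the malic enzyme that supplies NADPH, had the second smallest p of this list for LOXL1 siRNA against control, at 1.87, 1.48 and 1.98 FPKM in the control libraries and 2.39, 2.22 and 2.35 with LOXL1 siRNA, without overlap and higher (0.26 (SE 0.079, limma adjusted p = 0.276)). At an unadjusted p under 0.05, 4 genes of the list were lower (ACSS2, FADS2, FADS1 and FASN, the desaturases FADS1 and FADS2 named after their values were seen) and 1 was higher with LOXL1 siRNA, against 6.41% and 3.82% of tested genes.

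Of 12 tested genes of LXR and sterol efflux, 10 lay below 0 with LOXL1 siRNA against control (median -0.042) and 7 with LOX siRNA (median -0.012). NR1H2, which encodes an LXR, stood at 31.1, 35.1 and 31.9 FPKM in the control libraries and 30.3, 31.0 and 29.9 with LOXL1 siRNA, without overlap, with a log2 fold change of -0.10 (SE 0.048, limma adjusted p = 0.496). Of 25 tested genes of sterol trafficking, storage and uptake, 18 lay below 0 in each comparison with control (medians -0.025 with LOX siRNA and -0.030 with LOXL1 siRNA). NCEH1, a cholesteryl ester hydrolase with the second smallest p of the list for LOXL1 siRNA against control, stood at 22.2, 20.9 and 22.4 FPKM in the control libraries and 20.7, 19.8 and 20.0 with LOXL1 siRNA, without overlap (-0.11 (SE 0.043, limma adjusted p = 0.411)). Of 20 genes of the isoprenoid branches and prenylation, 7 and 8 lay below 0 with LOX and LOXL1 siRNA against control (medians 0.036 and 0.010). DOLK, the dolichol kinase, stood at 23.3, 23.5 and 22.9 FPKM in the control libraries and 21.1, 21.3 and 21.4 with LOXL1 siRNA, without overlap, with a log2 fold change of -0.12 (SE 0.041, limma adjusted p = 0.329). TRIT1, a tRNA isopentenyltransferase that uses dimethylallyl diphosphate, stood at 8.23, 7.82 and 7.79 FPKM in the control libraries and 8.88, 9.41 and 8.64 with LOX siRNA, without overlap and higher (0.16 (SE 0.050, limma adjusted p = 0.613)).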

How the data were processed

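The deposited table holds FPKM, which the authors scaled to gene length and library size, of 17123 genes. RNA was sequenced on the BGISEQ-500, per the labels. TopHat2 2.0.10 and hg19 are named in the submitters' processing notes; the sources used here do not name the FPKM tool. Gene starts in the table follow GRCh38 and are printed as given. FPKM fixes no absolute RNA amount, and length or GC trends of a library move whole classes of genes.

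Values were analysed as log2(FPKM + 1) in R 4.3.3 with limma 3.58.1 (trended empirical Bayes, 3 groups, 9 libraries, 6 residual degrees of freedom). Genes with at least 1 FPKM in 3 libraries were tested (11808). P-values are two-sided, adjusted by Benjamini-Hochberg over all of them, with a threshold of 0.05. With 3 libraries against 3, the smallest p an exact permutation test allows is 0.1. The fit was tested on simulated data.

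The members and lists were chosen with earlier results of these data known. Per-library values are given for members past the adjusted threshold, with an unadjusted p under 0.05 and no overlap of groups, with the highest or lowest level of their role, or among the 4 regulators; of each other list, up to 2 genes with the smallest p per comparison. A gene the rule did not reach is given by range. Alternatives were median-ratio scaling, no filter, a pseudocount of 0.1, no trend, the compared groups alone, the replicate block, removal of length and GC trends (splines of 4 degrees of freedom, 97.6% of tested genes with a GC value), and each library left out.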

Additional observations from a re-analysis of the deposited data

How the results depend on the processing

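Depth is unknown, so low values such as MYLIP carry an error that is not measured here, and 3 libraries a group limit what could pass. Of the 27 genes, 0 were called in each comparison and alternative, with 2 exceptions of 1 gene each: MSMO1 for LOXL1 siRNA against control with length and GC trends removed (-0.163, adjusted p = 0.0377), and EBP for LOX siRNA against LOXL1 siRNA without LOXL1 siRNA replicate 3 (0.29), so that leaving libraries out gave 0 to 1 there. Over all genes, LOX siRNA against control called 1, and 2 with no filter or with the trends removed (1 to 2 with a library left out, 2 without LOX siRNA replicate 1). LOXL1 siRNA against control called 9, and 26 with the trends removed (6 to 15, 15 without LOXL1 siRNA replicate 3). LOX siRNA against LOXL1 siRNA called 25, 4 with no filter, 8 with no mean-variance trend and 15 with the replicate block (5 to 62, 62 without control replicate 2, 39 without LOXL1 siRNA replicate 3, 13 or 14 without LOXL1 siRNA replicate 2 or control replicate 1, 5 to 9 without LOX siRNA replicate 1, 2 or 3 or LOXL1 siRNA replicate 1). The cause was not tested. Same-numbered libraries deviated with correlations of -0.068 to 0.025, and libraries with different numbers with -0.076 to 0.082. No shared deviation by number was seen, but such correlations cannot show whether the numbers pair the libraries. The block called 1 and 6 genes in the comparisons with control. The median of the 27 was -0.064 to -0.035 for LOXL1 siRNA against control and 0.025 to 0.071 between the knockdowns with a library left out; with LOX siRNA against control it was -0.0037 without control replicate 2 and up to 0.019. Fold changes near 0 changed sign. Of the 27, 11, 21 and 3 lay below 0 in the 3 comparisons (LOX siRNA and LOXL1 siRNA against control, then LOX siRNA against LOXL1 siRNA), 12, 23 and 6 with the trends removed and 11, 19 and 6 with median-ratio scaling. Among the 17 genes with per-library values, those that changed sign with the trends removed were SCAP with LOX siRNA (0.0043), and SCAP (0.00035), INSIG2 (-0.030) and CYP51A1 (-0.023) with LOXL1 siRNA; with median-ratio scaling it was FDFT1 with LOXL1 siRNA (0.0023). With a library left out, LOX siRNA against control gave -0.059 to 0.018 for MSMO1, -0.0057 to 0.029 for INSIG1, -0.023 to 0.059 for CYP51A1, -0.0024 to 0.038 for SQLE and -0.012 to 0.15 for MYLIP. LOXL1 siRNA against control gave -0.016 to 0.096 for INSIG2, -0.045 to 0.037 for CYP51A1, -0.025 to 0.012 for FDFT1 and -0.12 to 0.021 for INSIG1. Between the knockdowns the ranges were -0.0035 to 0.056 for TMEM97, -0.046 to 0.069 for PMVK, -0.0092 to 0.13 for INSIG1 and -0.030 to 0.059 for INSIG2. SREBF2 with LOXL1 siRNA against control stayed at -0.17 to -0.12 with a library left out (adjusted p 0.139 to 0.490).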
